A study of Mus musculus with 43 samples.

Results

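The genes described are 10 mouse apolipoprotein genes, Apoa1, Apoa2, Apoa4, Apoa5, Apob, Apoc1, Apoc3, Apod, Apoe and Apoh, followed across liver, skeletal muscle, inguinal white adipose tissue (WAT) and brain. They were chosen by name, with their higher values in skeletal muscle of WTDR mice in view, and each was found once among the 42349 entries of the expression table. RNA was sequenced from female mice at 15 months of age. WT mice carried Irs1+/+ and KO mice were global Irs1-/- knockouts, which lack insulin receptor substrate 1 in every tissue. Mice were fed ad libitum (AL) or kept on dietary restriction (DR), which was stepped down from 10 weeks of age to a 30% restriction of AL intake and held for 12 months. The 4 groups, WTAL, WTDR, KOAL and KODR, thus shared sex, age, housing and chow. The labels give 43 libraries, with 2 for each WTAL tissue, 2 for WTDR WAT (where the extraction protocol counts 3) and 3 for every other tissue and group. Each group is represented by 1 pooled FPKM (fragments per kilobase of transcript, scaled for library size) with a 95% interval from the authors' software. Per the study's methods, libraries were scaled by the geometric mean across samples. The FPKM sum over all entries ran from 502670 in WTAL brain to 1.95e+06 in KOAL muscle. An SD given here is the distance from the FPKM to the upper bound, divided by 2. No value of a single library entered the analysis, so depth is unknown, the spread between mice cannot be seen and the errors are those of the authors' model.

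Apolipoproteins are the protein parts of lipoproteins, the particles that carry triglyceride and cholesterol in blood. ApoB is the structural protein on which the liver and intestine build triglyceride-rich particles, apoA-I and apoA-II are the main proteins of high density lipoprotein (HDL), and the C group and apoA-V set how fast lipoprotein lipase clears triglyceride. Most are secreted by hepatocytes. ApoE, the ligand through which receptors take up remnant particles, is also made by macrophages, adipocytes and astrocytes, and apoD, a lipocalin that binds small lipids, is made mainly outside the liver.

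The members lie in a few places of the genome (GRCm38, GENCODE vM21). Apoa1, Apoc3, Apoa4 and Apoa5 form a cluster of 43.3 kb on chromosome 9, from 46228580 to 46271919, and Apoe and Apoc1 lie side by side on chromosome 7, from 19689481 to 19699188. Apoa2 is on chromosome 1, Apob on chromosome 12, Apod on chromosome 16 and Apoh on chromosome 11. The table's locus for Apoh runs from 107933387 to 108414396, much further than the annotated gene (108343354 to 108414396), and its values carry wide intervals outside the liver. RefSeq promoters (GRCm38.p6, 250 bases before to 50 after a start) matched 8 of the 10 members, with 12 starts. The 100 bases before a start are printed for 4 members, 5′ to 3′ on the strand of the gene. Apoa2 (chr1:171224954-171225053, plus strand) and Apoa5 (chr9:46268533-46268632, plus strand) are shown because they passed the test described below between KODR and KOAL WAT. Other members had lower values there too without passing it. Apoe (chr7:19699189-19699288, minus strand) and Apod (chr16:31314809-31314908, minus strand) are shown because their levels outside the liver stood apart from those of the other members. Capitals mark the letters TATAAA.
Apoa2: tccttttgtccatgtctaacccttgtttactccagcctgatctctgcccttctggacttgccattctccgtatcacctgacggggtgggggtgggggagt
Apoa5: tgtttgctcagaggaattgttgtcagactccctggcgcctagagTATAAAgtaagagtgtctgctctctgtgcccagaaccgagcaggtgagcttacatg
Apoe: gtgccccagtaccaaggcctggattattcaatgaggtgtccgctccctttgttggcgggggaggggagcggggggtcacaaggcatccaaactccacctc
Apod: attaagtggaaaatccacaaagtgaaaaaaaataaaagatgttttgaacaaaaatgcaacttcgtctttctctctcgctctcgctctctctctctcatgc
On either strand of the full windows, TATAAA was found for 4 of the 8 matched members (Apoa2, Apoa5, Apob and a second start of Apoe). It was in 13.6% of all 32851 windows of that length. The first count is per member and the second per window, and a member with several starts had several windows. In the Apoa5 stretch TATAAA begins 56 bases before the start used and 31 bases before the other RefSeq start of that gene. CAAAGTCCA and CAAAGGTCA, forms of the site bound by the hepatocyte factor HNF4, were in 0 of the 8 and in 0.475% and 0.478% of all windows, so these letters are simply not in these windows.

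The labelled tissues expressed their defining genes. All 24 liver markers had an FPKM of at least 1 in every liver group, as did all 12 skeletal muscle markers in skeletal muscle, all 10 adipocyte markers in WAT and all 8 astrocyte markers in brain. Irs1, the deleted gene, lay between 1.62 and 6.56 FPKM in all 16 groups. Its value was lower in the group labelled KO than in the WT group on the same diet in 1 of 8 comparisons (WAT under DR, log2 difference -1.35, SE 0.55, not past the test used here), and in brain under DR it was called higher (1.35, SE 0.40), so KOAL and KODR are names of labelled groups wherever a direction is drawn.

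In liver, 9 of the 10 members were abundant. The members together made up between 5.41% (WTAL) and 8.05% (WTDR) of the summed FPKM. Apoe was 26736 in WTAL, 46849 in WTDR, 40587 in KOAL and 42273.5 in KODR, which placed it among the 6 most abundant entries of every liver group. Of the HDL proteins, Apoa1 was 10017, 21380, 29888 and 30513 in the same order, and Apoa2 was 18852, 29958, 31480 and 42244.5. For both, WTAL was the lowest and KODR the highest, but the intervals of all 4 groups overlapped. The inhibitors of triglyceride clearance were next, with Apoc3 between 7345 and 10375 and Apoc1 between 6099 and 12616. The others were lower: Apob ranged from 876 to 1370, Apoh, which binds phospholipid, from 923 to 1937, and Apoa5, an activator of triglyceride clearance, from 1506 to 2339. Apoa4, a protein of intestinal and hepatic particles that responds to feeding, was 1701 in WTAL, 322 in WTDR, 957 in KOAL and 649 in KODR. Apod was all but absent, at 0 in WTAL and at most 0.0480 elsewhere.

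**Figure D1:**
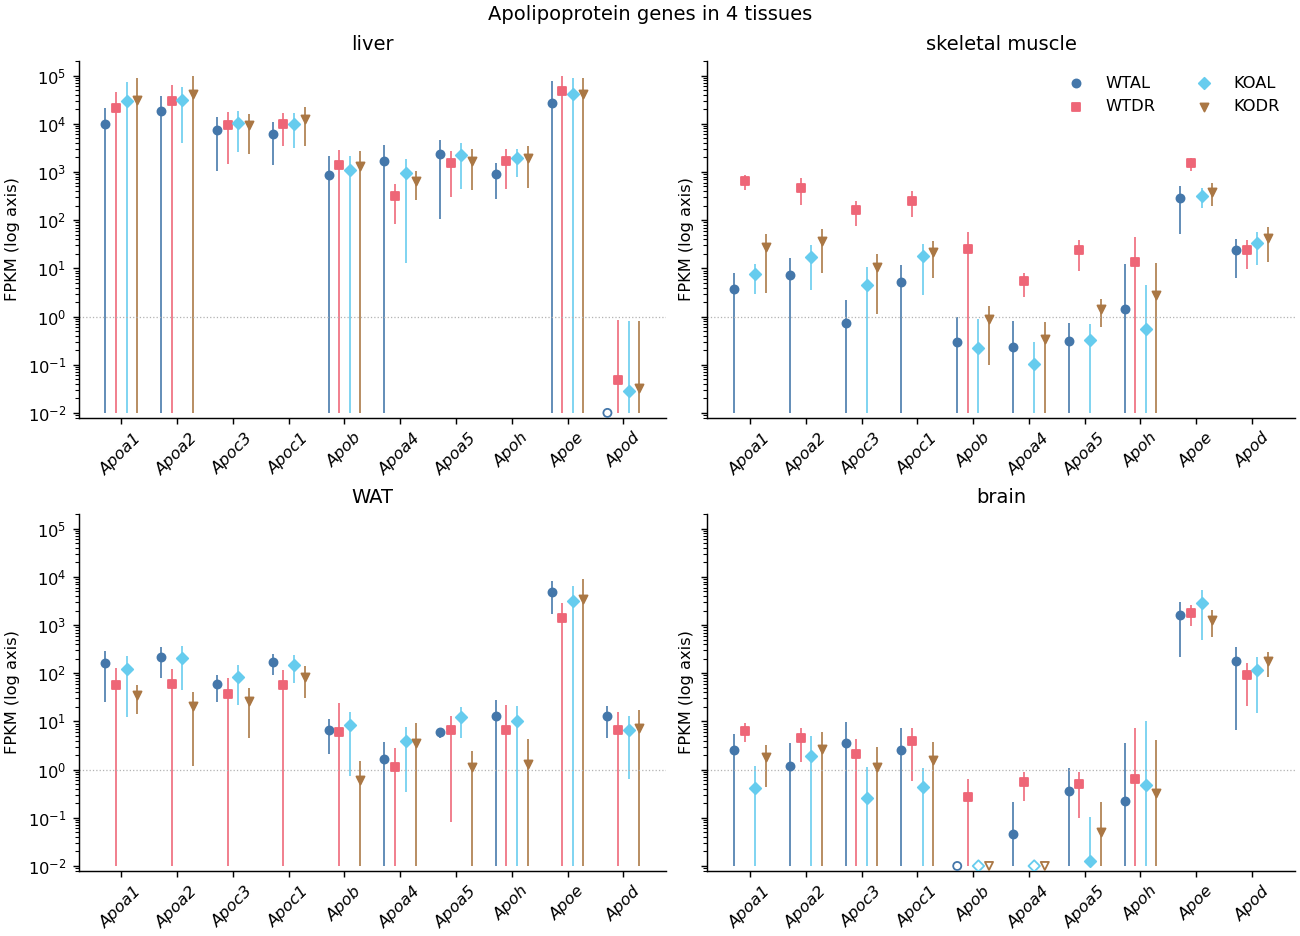
FPKM (log axis) of each member in WTAL, WTDR, KOAL and KODR, with 1 panel per tissue. Points are the authors' pooled group values, bars their 95% intervals (cut at the foot of the axis) and open symbols values below the axis. The WTDR points stand above the other 3 groups in skeletal muscle for every member but Apod, and in liver the intervals of the 4 groups overlap for each gene.

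Each tissue was then asked 4 questions: the effect of the KO label under AL (KOAL with WTAL) and under DR (KODR with WTDR), and the effect of DR in WT (WTDR with WTAL) and in KO (KODR with KOAL). The comparisons share groups. A difference is the log2 ratio of 2 group FPKM values with a standard error (SE) from the authors' intervals, and it is called when a two-sided Wald test passed a false discovery rate (FDR) of 10% over all entries tested in that tissue and comparison. In liver 0 of 9 members passed in any comparison, where 0.316% of all tested entries passed for KOAL with WTAL, 0.236% for WTDR with WTAL, 0.288% for KODR with WTDR and 0.611% for KODR with KOAL. At an unadjusted p under 0.05 the counts were 0, 1, 0 and 0. The 1 was Apoa4, whose level was lower in WTDR than in WTAL with a log2 difference of -2.40 (SE 0.95). The wide intervals limit what this shows: for Apoe the 95% interval of the difference between WTDR and WTAL ran from -2.26 to 3.88. All 9 intervals of WTDR with WTAL but that of Apoa4 included 0. In that comparison 7 of 9 members had a higher FPKM in WTDR, with a median log2 difference of 0.67, beside 24 of 24 liver markers with a median of 0.86 and a median of 0.03 over all tested entries. The genotype by diet interaction, the KO effect under DR less that under AL, passed for 0 of 9 members in liver, against 0.0860% of entries, and 0 had an unadjusted p under 0.05.

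Skeletal muscle held low levels of the same messages in 3 groups and much higher ones in WTDR, which is the pattern that the members were chosen for, so the values are given as a description. Apoa1 was 3.66 in WTAL, 653 in WTDR, 7.75 in KOAL and 27.3 in KODR. Apoa2 was 7.29, 471, 16.9 and 37.4 in the same order. For both HDL proteins the WTDR interval lay wholly above those of the other 3 groups. Apoc1 was 5.15, 254, 17.7 and 21.4, and Apoc3 was 0.736, 163, 4.51 and 10.5. Apob, on which particles are built, was 0.303, 25.4, 0.219 and 0.886, but its WTDR interval reached down to 0. The 2 genes at the far end of the chromosome 9 cluster had the lowest levels in the cluster: Apoa5 was 0.307, 23.5, 0.321 and 1.44, and Apoa4 was 0.235, 5.38, 0.102 and 0.350. Apoh was 1.44, 13.45, 0.559 and 2.80, with an interval from 0 in every group. Summed over the members, the share of all FPKM was 0.191% in WTDR and between 0.0205% and 0.0302% in the other groups.

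Between WTDR and WTAL muscle the log2 difference was 7.79 (SE 1.53) for Apoc3, 7.48 (SE 0.90) for Apoa1, 6.39 (SE 1.85) for Apob, 6.26 (SE 1.12) for Apoa5, 6.01 (SE 0.96) for Apoa2, 5.62 (SE 1.02) for Apoc1 and 2.41 (SE 0.63) for Apoe. These 7 of the 10 members passed the FDR, where 1.40% of all entries did. With calls taken from intervals that do not overlap, Apob was lost in this comparison and in that of KODR with WTDR, and Apoa4 was gained. Apoa4 (4.52, SE 1.75) and Apoh (3.22, SE 5.57) did not pass. For KODR with WTDR, 8 of 10 passed with lower values in KODR, from -1.96 (SE 0.41) for Apoe to -4.84 (SE 1.11) for Apob, where 2.23% of all entries passed. Both comparisons contain WTDR, and both were used in choosing the members, so nothing is read from these counts. For KOAL with WTAL, 0 of 7 members passed, 0 had an unadjusted p under 0.05, and 0.681% of entries passed.

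The comparison of KODR with KOAL muscle uses neither WT group. All 8 members tested had a higher FPKM in KODR, but 0 passed the FDR, where 0.500% of entries did. Apoa5 (log2 difference 2.17, SE 0.97) and Apoa1 (1.82, SE 0.78) had an unadjusted p under 0.05. Apoa2 differed by 1.15 (SE 0.80), Apoc3 by 1.21 (SE 1.20), Apoe by 0.29 (SE 0.47) and Apoc1 by 0.27 (SE 0.79). Apob and Apoa4 were under an FPKM of 1 in both groups and were not tested. The interaction in muscle, described only, was -5.66 (SE 1.19) for Apoa1, -5.36 (SE 1.29) for Apoc1 and -4.87 (SE 1.25) for Apoa2, and these 3 of 10 passed where 0.371% of entries did.

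To set the muscle levels beside liver RNA, the FPKM of each gene in muscle was taken as a percent of its FPKM in the liver of the same group. The same was done for 24 liver marker genes, such as albumin (Alb) and the fibrinogen chains, which hepatocytes make. Over the markers the median was 0.0304% in WTAL, 2.03% in WTDR, 0.0341% in KOAL and 0.0697% in KODR. Against WTAL liver instead of WTDR liver the WTDR median was 3.59%. The WTDR values were close together, from 0.996% for Fgb to 3.19% for Mug1, and Alb was 987 in muscle against 56555 in liver (1.75%). Of the 21 markers tested between WTDR and WTAL muscle, 15 were called with higher values in WTDR, where 1.40% of all entries were called. Of 24 tested between KODR and WTDR, 18 were called with lower values in KODR, where 2.23% of all entries were called. Both comparisons contain WTDR, and markers near 0 elsewhere passed the FPKM filter through that group, so these counts are a description. In WTAL muscle the markers Apcs, C8a and Mug1 were listed at 0.

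The 8 members other than Apoe and Apod lay at the level of these markers. In WTDR their percent of liver ran from 0.793% for Apoh to 3.05% for Apoa1, with a median of 1.69%, and 7 of the 8 fell within the range of the markers. Apoa2 was at 1.57%, Apoa5 at 1.56%, Apoa4 at 1.67%, Apoc3 at 1.70%, Apob at 1.85% and Apoc1 at 2.51%. Apoa4 and Apoa2, whose liver levels differ widely, stood at nearly the same percent, with SDs of 0.754 and 1.03 percentage points. Apoh had the lowest percent and Apoa1 the highest, with SDs of 0.957 and 1.76 percentage points. In the other groups the 8 members had medians of 0.0355% (WTAL), 0.0276% (KOAL) and 0.0890% (KODR). Within the marker range were 8, 7 and 8 of the 8. Over the 24 markers and these 8 members, the correlation across genes of log FPKM in muscle with that in liver was 0.982 in WTDR, 0.771 in WTAL, 0.817 in KOAL and 0.917 in KODR. The 32 genes are not independent replicates, share the same libraries and were listed for being high in liver.

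**Figure D2:**
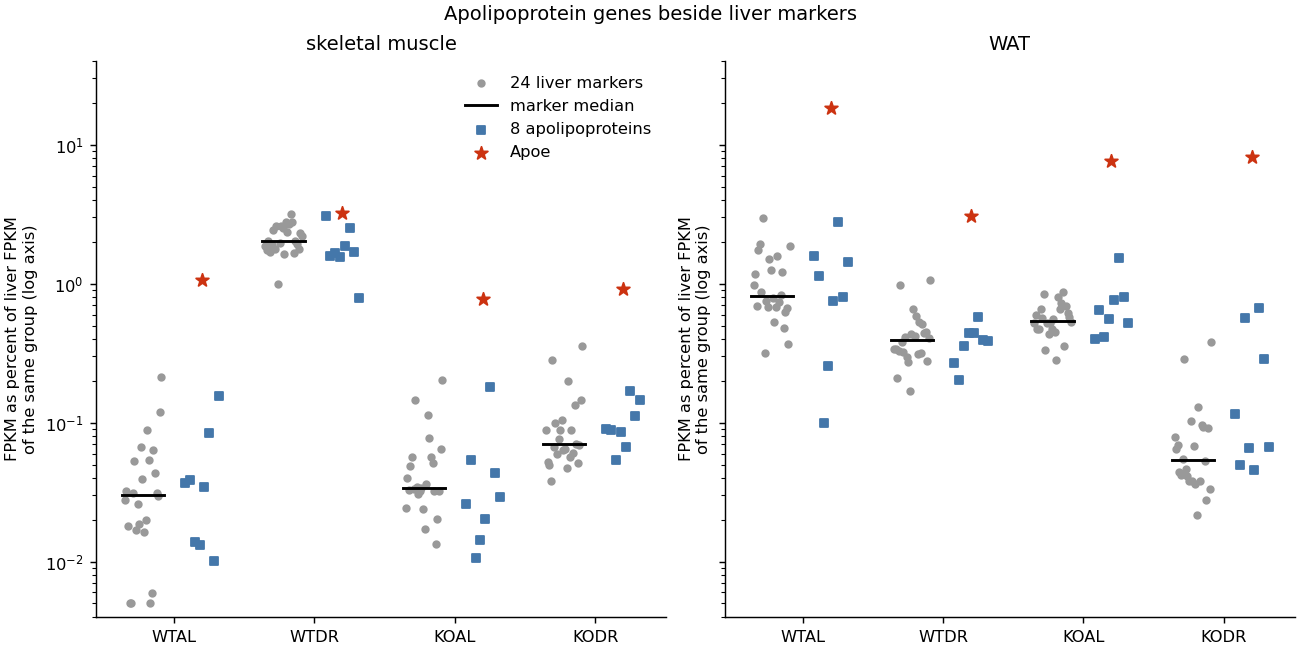
FPKM in skeletal muscle (left) and WAT (right) as a percent of the liver FPKM of the same group (log axis), for 24 liver markers (grey, median as a bar; those at 0 drawn near the foot), 8 apolipoprotein genes (squares) and Apoe (star). In muscle most squares sit among the grey points, whose median is 2.03% in WTDR and at most 0.0697% elsewhere, and the star stands well above them in every group but WTDR (3.23% against 3.19% for the highest marker).

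The liver markers moved with the members in muscle, and the part of liver RNA in these levels was not tested. A pooled value does not show whether 1 or all 3 WTDR libraries carried it. In bulk tissue, fewer cells of a type and less RNA per cell cannot be told apart. The small intestine, another source of Apoa1, Apoa4 and Apob, was represented by 7 marker genes. In WTDR muscle 4 of them were listed at 0 and Fabp2, at 2.77, was the only one at or above an FPKM of 1. Fabp2 was also expressed in WTDR liver, at 84.3.

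**Figure D3:**
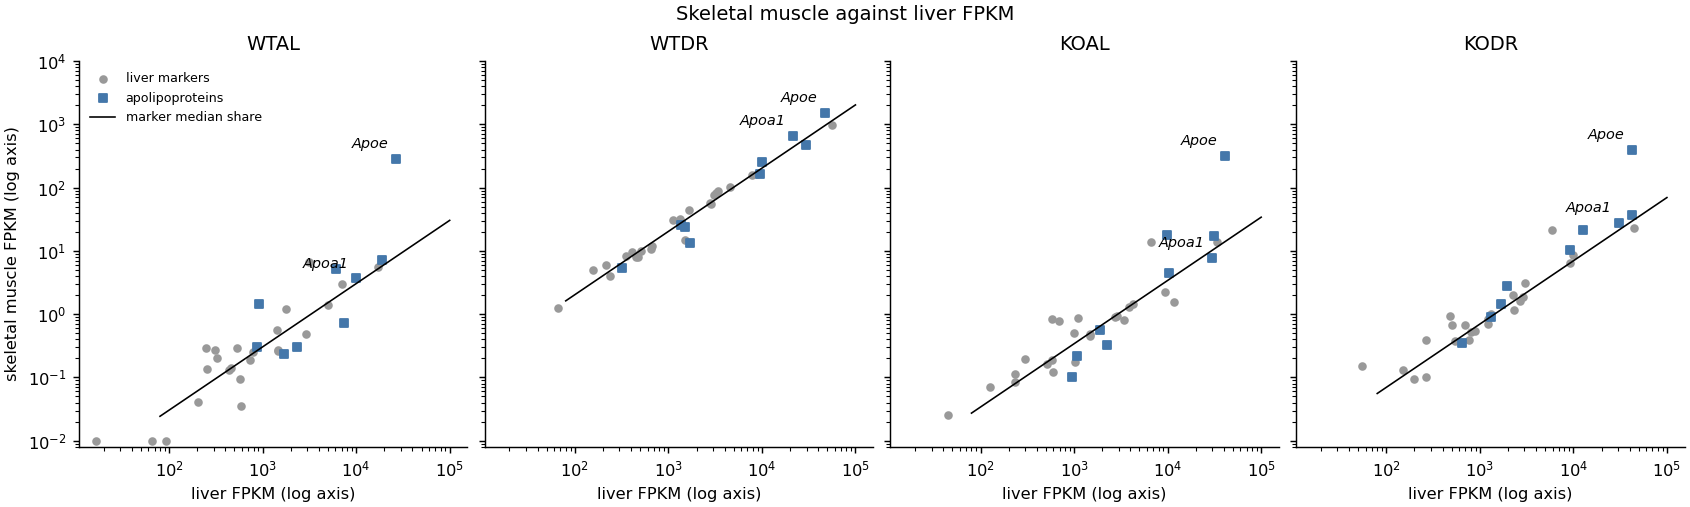
Skeletal muscle FPKM against liver FPKM (both log axes) in the 4 groups, with liver markers in grey (those at 0 in muscle drawn near the foot), members other than Apod as squares and a line at the marker median share. In WTDR the squares and grey points lie along the line of 2.03%, while Apoe stands above the line in every group.

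Apoe was present in muscle of every group, above every level that the other members had outside WTDR. Its FPKM was 286 (SD 116) in WTAL, 1514 (SD 223) in WTDR, 317 (SD 70.0) in KOAL and 389 (SD 93.8) in KODR. WTDR was the highest, with an interval above those of the other 3, which overlapped one another. As a percent of liver, Apoe was at 1.07% in WTAL, 0.782% in KOAL and 0.920% in KODR, or 35.1, 22.9 and 13.2 times the marker median, and above the highest marker in each. In WTDR it was at 3.23%, or 1.59 times the median. That was above the highest marker (3.19%) by far less than its own SD of 1.87 percentage points. If Apoe's liver FPKM is multiplied by the marker median and subtracted, 277 FPKM remain in WTAL, 564 in WTDR, 304 in KOAL and 359 in KODR. The WTDR remainder runs from 18.8 at the highest marker's percent to 1047 at the lowest one's, so it cannot be placed above or below the other groups. The difference between WTDR and WTAL muscle itself came to 2.62% of the liver FPKM for Apoe and 3.04% for Apoa1, beside a median of 2.00% and a range of 0.984% to 3.19% for the markers.

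**Figure D4:**
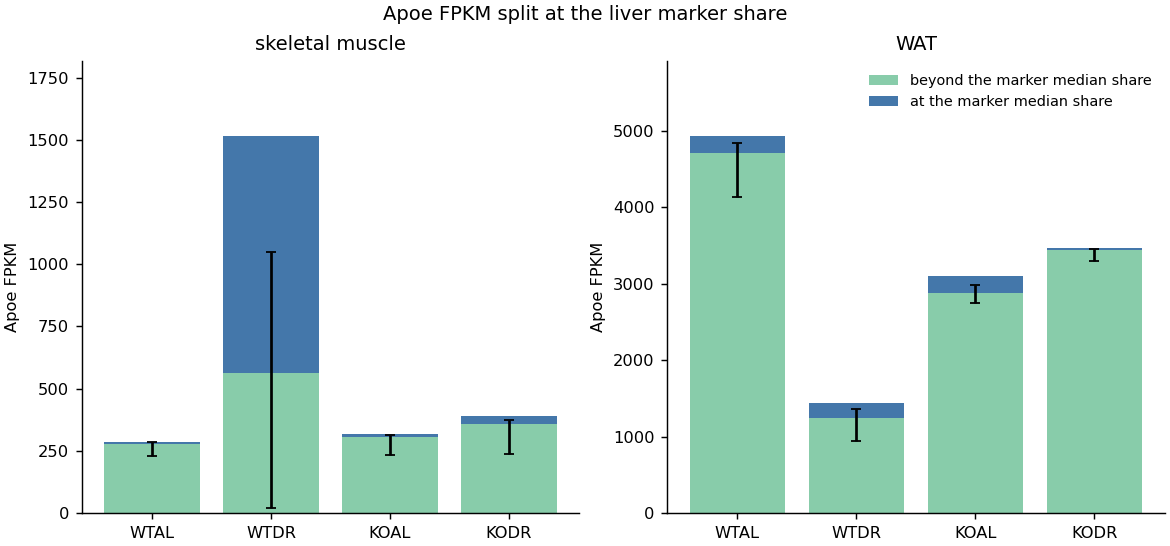
Apoe FPKM in skeletal muscle (left) and WAT (right), split into the part at the liver marker median share (dark, top) and the part beyond it (light), with bars for the beyond part at the highest and lowest marker share. In muscle the light part is between 277 and 564 in the 4 groups, and its bar is widest in WTDR.

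Macrophages, a known source of apoE, were represented by 10 markers whose summed FPKM in muscle was 160 in WTAL, 123 in WTDR, 193 in KOAL and 85.4 in KODR. The sum was highest in KOAL and lowest in KODR. The 10 adipocyte markers summed to 1815, 613, 2099 and 2736, with the lowest sum in WTDR. The part of either cell type in the level of Apoe was not tested.

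Apod behaved unlike the rest. Its muscle FPKM was 23.8 (SD 8.69) in WTAL, 23.8 (SD 7.01) in WTDR, 33.7 (SD 11.1) in KOAL and 43.2 (SD 14.8) in KODR, and all 4 intervals overlapped. With a liver FPKM of at most 0.0480, no percent of liver was formed. The log2 difference between WTDR and WTAL muscle was -0.00 (SE 0.68), with a 95% interval from -1.33 to 1.32, and that between KODR and KOAL was 0.36 (SE 0.69). Markers of myelin-forming cells, which express Apod in nerve, summed to 96.9 in WTAL, 32.0 in WTDR, 90.3 in KOAL and 210.5 in KODR muscle. Of 7 tested between KODR and WTDR, 4 were called with higher values in KODR, Mbp, Pmp22 and Prx among them, where 2.23% of entries passed. Between WTDR and WTAL muscle, Mbp was called with a lower value in WTDR (-2.50, SE 0.67), where 1.40% of entries passed. The part of those cells in the level of Apod was not tested.

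In WAT, Apoa2 and Apoa5 were the members called between KODR and KOAL, with lower values in KODR. Apoa2 was 213 in WTAL, 61.2 in WTDR, 204 in KOAL and 20.8 in KODR, and its log2 difference between KODR and KOAL was -3.29 (SE 0.88). Apoa5 was 5.94, 6.63, 12.5 and 1.11 in the same order, with a difference of -3.50 (SE 1.01). KODR was the lowest group for both, and its interval lay below that of KOAL. These were 2 of 10 members, where 0.707% of entries passed. At an FDR of 5%, or with no filter on low FPKM, Apoa2 was the 1 member called. Apob was 8.29 in KOAL and 0.607 in KODR (log2 difference -3.77, SE 1.23), Apoa1 was 120.0 and 35.3 (-1.76, SE 0.78), and Apoc3 was 83.5 and 26.7 (-1.65, SE 0.80). These 3 had an unadjusted p under 0.05 but did not pass the FDR. Apoh gave -2.95 (SE 1.83), Apoc1 -0.82 (SE 0.63) and Apoa4 -0.13 (SE 1.30).

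The liver markers moved with these members here too. All 22 tested had a lower FPKM in KODR than in KOAL WAT, with a median log2 difference of -3.22 beside -1.71 over the 10 members and 0.01 over all entries, and Fgb (-3.83, SE 1.08), Hpx (-3.88, SE 1.10) and Plg (-3.07, SE 0.90) passed the FDR. The summed FPKM of the 24 markers was 473 in WTAL, 389 in WTDR, 466 in KOAL and 79.3 in KODR. Their median percent of liver was 0.813%, 0.394%, 0.543% and 0.0538% in that order. Of the 8 members other than Apoe and Apod, 6, 8, 7 and 6 lay within the range of the markers in the same order. Apoa2 in WAT was at 0.647% of liver in KOAL and Apoa5 at 0.554%, both within the range. In KODR they were at 0.0493% and 0.0659%, also within it, but Apoa5 was below it in WTAL (0.254%). The part of liver RNA in the fall of either gene was not tested.

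In liver itself the same comparison gave 0.42 (SE 1.11) for Apoa2 and -0.42 (SE 0.79) for Apoa5. The WAT difference less the liver difference was -3.71 (SE 1.42) for Apoa2, -3.07 (SE 1.28) for Apoa5 and -4.07 (SE 1.61) for Apob. These 3 had an unadjusted p under 0.05, but 0 of 10 members passed the FDR, where 0.173% of entries did.

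**Figure D5:**
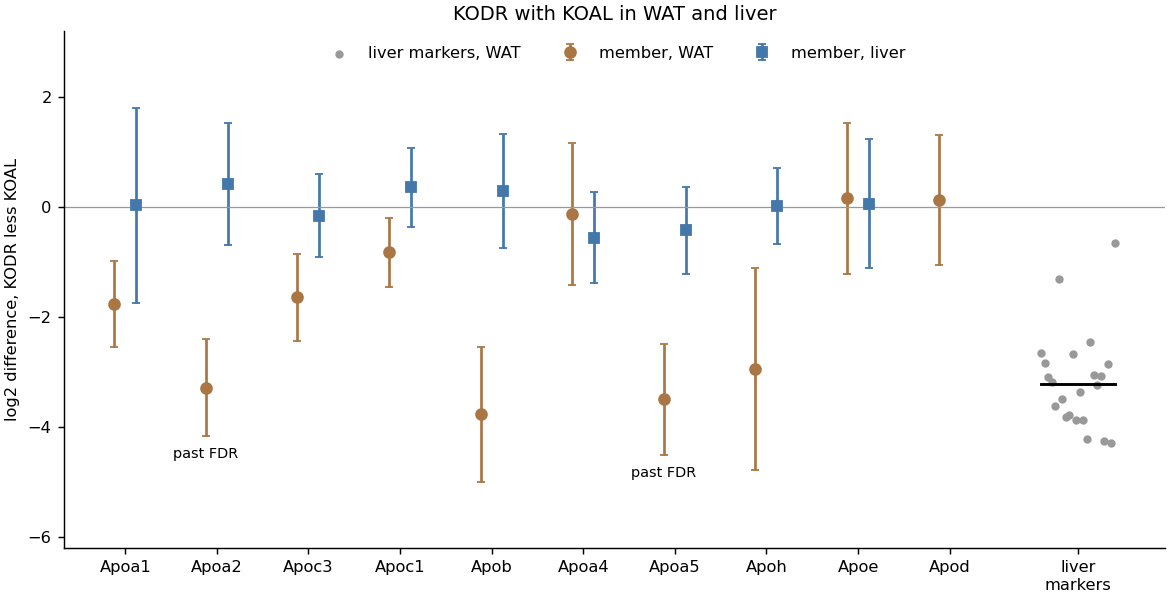
Log2 difference of KODR less KOAL for each member in WAT (circles) and liver (squares), with bars of 1 SE, and for the liver markers tested in WAT (grey, median as a bar). Apoa2 (-3.29) and Apoa5 (-3.50) passed the FDR in WAT and lie near the marker median of -3.22, while Apoe and Apod lie near 0. Apod has no liver point.

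Two-sided Wald tests of the other WAT comparisons called 0 of 10 members. For KOAL with WTAL 1.29% of entries passed and 1 member (Apoa5, log2 difference 1.07, SE 0.49) had an unadjusted p under 0.05. For WTDR with WTAL, where 0.570% passed, 9 of 10 members were lower in WTDR, with a median of -0.99 over the members and -0.17 over all entries. Apoa2 (-1.80, SE 0.86) and Apoe (-1.78, SE 0.87) had an unadjusted p under 0.05. For KODR with WTDR 0.283% passed, and Apoa5 (-2.58, SE 1.15) had an unadjusted p under 0.05. The interaction passed for 0 of 10 members in WAT against 0.121% of entries, with 1 (Apoa5, -3.65, SE 1.25) at an unadjusted p under 0.05.

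Apoe was the most abundant member in WAT, at 4929 in WTAL, 1434 in WTDR, 3102 in KOAL and 3463 in KODR. WTAL was the highest and WTDR the lowest, but their intervals overlapped. These levels were 18.4%, 3.06%, 7.64% and 8.19% of liver, above the highest liver marker in every group, and the part at the marker median share was at most 12.9% of each. Between KODR and KOAL, where the liver markers fell, Apoe differed by 0.16 (SE 1.38). Macrophage markers summed to 1213 in WTAL, 450 in WTDR, 635 in KOAL and 593 in KODR WAT, highest and lowest in the same groups as Apoe, and their part in its level was not tested. Apoc1, the neighbour of Apoe and a gene that macrophages also express, was 171, 58.2, 149.9 and 84.8. Its percent of liver was above the highest marker in KOAL (1.52%) and KODR (0.672%) and within the range in WTAL (2.80%) and WTDR (0.575%). Apod was 12.7, 6.50, 6.77 and 7.41, with overlapping intervals, and Apoa4 stayed between 1.15 and 3.99.

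In brain, Apoe and Apod were the only members above an FPKM of 10. Apoe was 1582 in WTAL, 1795 in WTDR, 2912 in KOAL and 1280.2 in KODR, and Apod was 178, 93.4, 117 and 182. All 4 intervals overlapped for each gene. The 8 astrocyte markers, genes of the cells that make most apoE in brain, summed to 731, 583, 635 and 806 in the same order of groups. The other 8 members had at most 6.47 FPKM, the level of Apoa1 in WTDR, and Apob was listed at 0 in WTAL and KODR. Of 6 members tested 0 passed in any comparison, where 0.203% of entries passed for KOAL with WTAL, 0.224% for WTDR with WTAL, 1.16% for KODR with WTDR and 0.365% for KODR with KOAL. At an unadjusted p under 0.05 there was 1 over the 4 comparisons, Apoa1 in KODR relative to WTDR (log2 difference -1.83, SE 0.63). There the liver marker Alb was called with a lower value in KODR, and the 24 markers stood at a median of 0.0240% of liver in WTDR and 0.00111% in KODR. The highest marker in brain, Itih3, went the other way, with 6.07% of liver in WTDR and 8.63% in KODR. The interaction passed for 0 of the 6 members tested in brain, with 0 at an unadjusted p under 0.05, where 0.396% of entries passed.

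Set across tissues, the order of Apoe within a group was liver, WAT, brain and muscle, except in WTDR, where it was liver, brain, muscle and WAT. No test between tissues was run for it, and the order is one of FPKM, whose sum over all entries differed between tissues. In WTDR that sum was 1.65e+06 in muscle, 1.04e+06 in WAT and 688153 in brain, and Apoe was at rank 68 in both muscle and WAT. The liver interval reached down to 0 in all 4 groups, and the WAT and brain intervals overlapped in every group. The muscle interval lay below that of brain in KOAL and overlapped it in the other groups. For Apod the order was brain, muscle, WAT and liver in all 4 groups, with overlap of the brain and muscle intervals in all but KODR and of the muscle and WAT intervals in every group. For the other 8 members liver was highest in every group. The next was WAT in WTAL and KOAL and muscle in WTDR, and in KODR muscle had the higher value for 4 of the 8 (Apoa2, Apoa5, Apob and Apoh). The FPKM sum in KODR was 1.77e+06 in muscle and 881860 in WAT, so the order by share of the sum can differ.

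The other genes of lipoprotein metabolism were read from 48 entries, covering further apolipoproteins, particle assembly, lipases, receptors, cholesterol efflux and the transcription factors of apolipoprotein genes. In liver 1 of 47 passed for KODR with KOAL and 0 of those tested in the other 3 comparisons, with between 1 and 5 at an unadjusted p under 0.05 in each. In WAT and brain 0 passed in any of the 4 comparisons, with between 0 and 3 of those tested at an unadjusted p under 0.05 in each. In muscle the KODR with KOAL comparison called 0 of 26, with 2 at an unadjusted p under 0.05. The shares of all entries called in these comparisons are those given with the members, from 0.203% in brain (KOAL with WTAL) to 1.29% in WAT (KOAL with WTAL).

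In muscle 2 of 39 were called between WTDR and WTAL, where 1.40% of all entries were, and 5 of 38 between KODR and WTDR, where 2.23% were. Both contain WTDR, on which the members were chosen, and genes near 0 elsewhere passed the FPKM filter through that group, so these counts are a description. The joined entry of Apoc2, the activator of lipoprotein lipase, and Apoc4 was 0.774 in WTAL, 80.7 in WTDR, 1.34 in KOAL and 6.69 in KODR. It was called between WTDR and WTAL (log2 difference 6.70, SE 1.50) and between KODR and WTDR (-3.59, SE 0.81). Apom (-4.96, SE 1.23), Apof (-3.94, SE 1.06) and Apon (-3.86, SE 0.98) were called with lower values in KODR than in WTDR. Apof and Apon were not called between WTDR and WTAL, and Apom, listed at 0 in WTAL, was not tested there. As a percent of liver in WTDR, the joined entry was at 1.93%, Apom at 3.31%, Apof at 1.01% and Apon at 0.792%. The serum amyloid A genes Saa1, Saa2 and Saa4 had 8.79, 3.98 and 4.26 FPKM in WTDR muscle and were not called in any muscle comparison that tested them. Cebpa, a transcription factor of liver and fat, went the other way, with -1.16 (SE 0.27) between WTDR and WTAL and 1.50 (SE 0.24) between KODR and WTDR. For KOAL with WTAL, Clu, which encodes the extracellular chaperone also called apoJ, was the 1 of 25 called, at 496 in WTAL and 66.6 in KOAL (-2.90, SE 0.78).

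Genes that act inside the cell stood at mixed percents of liver in WTDR muscle. Of the 6 genes of particle assembly, Mttp, which loads lipid onto apoB, was at 1.31%, Cideb at 2.16% and Tm6sf2 at 2.23%, within the range of the liver markers. The other 3 lay above it, with the chaperone P4hb at 9.18% and the triglyceride synthases Dgat2 at 12.3% and Dgat1 at 52.9%. Of the 11 transcription factors, Hnf4a (1.52%), Nr1h4 (2.04%), Creb3l3 (2.18%) and Nr0b2 (2.95%) were among those within the marker range. Above it lay 6, from 3.51% for the joined entry that holds Onecut1 to 49.3% for Foxo1. Nr1h3 was likewise read from a joined entry. Between WTDR and WTAL 0 of the 6 assembly genes passed the Wald test, with 0 at an unadjusted p under 0.05, and of the 8 transcription factors tested Cebpa was the 1 called. Genes that muscle itself uses to take up lipid were higher in muscle than in liver of WTDR mice. Lpl, the lipase anchored on capillaries, was 88.4 in muscle and 8.52 in liver, Vldlr was 23.0 and 4.81, and Cd36, the fatty acid transporter, was 50.8 and 32.4. These 3 had lower values in WTDR than in WTAL muscle (Lpl 252, Vldlr 47.1 and Cd36 86.2 in WTAL), and the test called none of them. The 10 adipocyte markers were lower between the same groups, with a sum of 1815 in WTAL and 613 in WTDR, Lpl was 1376 in WTAL WAT, and the part of fat cells in these values was not tested. Of the 3, Lpl (-1.51, SE 0.56) and Cd36 (-0.76, SE 0.32) had an unadjusted p under 0.05.

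Across the 16 group values, the entries whose log2(FPKM + 1) was most like that of Apoa1 among 12529 entries were Ahsg (Pearson r 0.996), the joined entry of Apoc2 and Apoc4 (0.994) and Serpina1b (0.994). For Apoe they were Pcbd1 (0.976), Acsl5 (0.971) and Hsd17b11 (0.969), and for Apod they were Podxl2 (0.992), Mtss1l (0.987) and Cpe (0.983). Between members, r was 0.993 for Apoa1 with Apoa2, 0.843 for Apoa1 with Apoe and -0.92 for Apoa1 with Apod. These values describe 16 points in 4 tissues and are set largely by the differences between tissues.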

How the data were processed

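Poly(A) RNA of 4 tissues was sequenced on an Ion Proton instrument. Per the labels and the study's methods, the authors trimmed reads with cutadapt 1.5, aligned them to GRCm38 with BBMap and ran Cuffdiff 2.2.1, and they deposited 1 table of FPKM values per group with the bounds of a 95% interval and a status, in which 873 entries join several genes. Depth per library is unknown. Groups follow the labels. The two-sided Wald test on the log2 FPKM ratio used an SE by the delta method, entries with status OK, FPKM above 0 in both groups and at least 1 in one, and Benjamini-Hochberg adjustment within a tissue and comparison at an FDR of 10% (Python 3.11.15, numpy 2.4.6, pandas 2.3.3, scipy 1.17.1, matplotlib 3.10.9). The interaction and the WAT less liver difference were tested likewise, on entries above 0 in all 4 groups used. The script was tested on simulated data. Percent of liver used no test. The members and lists were chosen with earlier results of these data known. Genes named are the members, those lists, Irs1, and the 3 entries most alike to Apoa1, Apoe and Apod out of entries that reached an FPKM of 10 in some group. Alternatives were pseudocounts of 0.1 and 1, non-overlapping intervals, an FDR of 5%, no filter, an FPKM of at least 5, a 2-fold minimum, centring on the median, leaving out joined entries and dividing the SD by the square root of the libraries. Some listed genes are not reported here. Brain was analysed as a comparison tissue.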

Additional observations from a re-analysis of the deposited data

Results flagged for a closer look

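In skeletal muscle the difference between KO and WT groups was not the same under both diets for 3 members, by the interaction term. The interaction (KODR less WTDR, minus KOAL less WTAL, on the log2 scale) was -5.66 (SE 1.19) for Apoa1, -4.87 (SE 1.25) for Apoa2 and -5.36 (SE 1.29) for Apoc1. The members were chosen on the WTDR muscle values that enter this term, so its outcome was set by that choice and the 3 values are a description, not a tested result. The 24 liver markers had a median of 2.03% of liver in WTDR muscle and 0.0697% in KODR muscle, and their part in these values was not tested.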

How the results depend on the processing

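No paired analysis was possible because the table holds 1 pooled value per group, and for the same reason no library could be left out. The number of member calls was 0 in liver, 0 in brain, 2 in WAT and 15 in skeletal muscle over the 4 comparisons, and 0 for the interaction in liver, WAT and brain. The muscle calls all came from the 2 comparisons that contain WTDR, on which the members were chosen, so their count is a description. Of all entries 1.40% (WTDR with WTAL) and 2.23% (KODR with WTDR) were called there. In WAT both calls were for KODR with KOAL, where 0.707% of entries passed. The shares ran from 0.236% to 0.611% in liver and from 0.203% to 1.16% in brain. Dividing the SD by the square root of the libraries moved most counts: 1 in liver, 2 in brain, 8 in WAT, 18 in muscle and 1 for the interaction, and 11, 37, 10 and 4 pathway calls in liver, muscle, WAT and brain in place of 1, 8, 0 and 0. Calls over all entries rose at that setting too, from 110 to 1149 in WAT (KODR with KOAL), 177 to 2826 in brain (KODR with WTDR) and 32 to 387 in liver (WTDR with WTAL). With a pseudocount of 1 there were 3 member calls in WAT and 1 in brain, and 16 pathway calls in muscle and 2 in WAT. A pseudocount of 0.1 gave 14 pathway calls in muscle and 1 in WAT. Intervals that do not overlap gave 1 member call in brain, ended both Apob calls in muscle (6.39 and -4.84), added Apoa4 there (4.52), and gave 13 pathway calls in muscle and 2 in WAT. Calls over all entries rose at these settings too. In muscle (WTDR with WTAL) they went from 197 to 293 with a pseudocount of 1, 256 with 0.1 and 271 with non-overlapping intervals. In WAT (KODR with KOAL) they went from 110 to 192, 164 and 196 in that order. In WAT 1 member call was left at an FDR of 5% and 1 without the filter, and in both it was Apoa5 that was lost (-3.50). Centring on the median turned 2 differences near 0, Apob in WAT (0.0643) and Apod in muscle (0.0615) between WTDR and WTAL. Against WTAL liver the marker median in WTDR muscle was 3.59% in place of 2.03%.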
